A study of Mus musculus and Homo sapiens
Mus musculus with 14 samples.

Results

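The NMDA receptor subunits are the 7 genes Grin1, Grin2a, Grin2b, Grin2c, Grin2d, Grin3a and Grin3b, taken by symbol from the count tables of a light-directed barcoding study of the mouse retina. All 7 were listed in both tables used here, among 24460 genes in 12 libraries of retinal layers and among 18415 genes in 10 libraries of amacrine cells. RNA was reverse transcribed inside fixed cryosections of the retina from wild-type CD1 IGS mice in the third postnatal week. Chosen areas were then barcoded with patterned light, and each count is the number of distinct molecular identifiers (UMIs) that carried 1 area's barcode. In 4 sections of 1 animal, masks drawn by hand covered the photoreceptors of the outer nuclear layer (ONL), the bipolar cell layer (BCL), where Müller glia and horizontal cells also lie, and the layer of ganglion cells and displaced amacrine cells (GCL). In 5 other sections, amacrine cells stained for tyrosine hydroxylase, the dopaminergic type (TH+), received a barcode of their own and unstained amacrine cells (TH−) received another. A TH+ library pools the few stained cell bodies of 1 section, and a TH− library pools a far larger number of cells. Neither experiment had a treatment or a second genotype, so every comparison is between cells of wild-type retina.

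NMDA receptors are glutamate-gated cation channels of the excitatory synapse. Every receptor contains the GluN1 subunit, encoded by Grin1, together with GluN2 subunits, which bind glutamate and set the kinetics and the magnesium block of the channel, and in some receptors GluN3 subunits, which bind glycine. The channel opens when glutamate and a co-agonist, glycine or D-serine, are bound and depolarization has relieved the magnesium block, and it lets calcium into the cell. In the retina, ganglion cells and amacrine cells are known to carry NMDA receptors, while photoreceptors release glutamate and signal to bipolar cells mostly through other glutamate receptors.

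The genes lie on 7 chromosomes of the GRCm39 assembly, and all positions here are of whole genes whose exons were counted. Grin1 spans chr2:25181186-25209226, Grin2a chr16:9385762-9813424 and Grin2b chr6:135690231-136150548, all on the minus strand. Grin2c spans chr11:115139992-115158525, Grin2d chr7:45481304-45527802 and Grin3a chr4:49661611-49845847, also on the minus strand, and Grin3b spans chr10:79806549-79813024 on the plus strand. The combined length of all annotated exons runs from 3296 bases for Grin3b to 24842 bases for Grin2b. Because the cDNA was primed at random positions, a longer RNA gives more UMIs, so levels of different genes are compared only as CPM, the UMIs scaled to a common library total, per kilobase of exon. Exons of 6 of the genes overlap those of another annotated gene, Grin2a being the exception, and for Grin1 these are Lrrc26 and the antisense gene Grin1os on the opposite strand. Counting did not use strand, so where exons overlap, reads of a gene and of its partner on the opposite strand cannot be told apart, and reads on exons of both, as annotated by the authors' release, were left out. Grin1os held 3 UMIs against 861 for Grin1 in the layers and 2 against 185 in the amacrine libraries.

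Promoters are shown for Grin1, Grin2c and Grin2d, the subunits called higher in the GCL for which a promoter sequence was matched. Grin2a, Grin2b and Grin3a were also called higher but had no match. The start regions shown can be read side by side. Each line runs from 250 bases before to 50 bases after the gene's start in RefSeq (GRCm38.p6), 5′ to 3′ on the gene's strand, and capitals mark each GC box, the letters GGGCGG or CCGCCC on either strand. Positions in that build are chr2:25319138-25319437 for Grin1, chr11:115267194-115267493 for Grin2c and chr7:45866632-45866931 for Grin2d, all on the minus strand.
Grin1: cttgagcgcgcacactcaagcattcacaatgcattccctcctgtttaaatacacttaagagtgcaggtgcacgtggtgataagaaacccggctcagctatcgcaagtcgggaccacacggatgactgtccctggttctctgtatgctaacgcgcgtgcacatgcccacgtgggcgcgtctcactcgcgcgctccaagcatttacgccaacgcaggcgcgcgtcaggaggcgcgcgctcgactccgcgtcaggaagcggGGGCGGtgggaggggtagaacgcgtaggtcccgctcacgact
Grin2c: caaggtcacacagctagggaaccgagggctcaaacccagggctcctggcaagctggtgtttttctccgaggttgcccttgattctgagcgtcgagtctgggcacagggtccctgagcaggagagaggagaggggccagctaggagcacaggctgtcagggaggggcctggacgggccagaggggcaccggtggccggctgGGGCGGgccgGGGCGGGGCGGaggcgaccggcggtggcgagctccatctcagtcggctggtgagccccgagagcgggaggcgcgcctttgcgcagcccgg
Grin2d: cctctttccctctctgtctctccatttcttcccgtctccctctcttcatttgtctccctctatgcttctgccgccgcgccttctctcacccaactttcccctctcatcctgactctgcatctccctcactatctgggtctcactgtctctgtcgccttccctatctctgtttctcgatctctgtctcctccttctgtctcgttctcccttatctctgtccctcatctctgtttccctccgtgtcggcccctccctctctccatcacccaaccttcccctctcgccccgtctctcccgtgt
The Grin1 window held 1 GC box, which lay after the start, and 60.7% of its bases were G or C. The Grin2c window held 3 GC boxes, of which the last 2 overlap by 1 base, in 70% G and C. The Grin2d window, rich in C and T at 56% G and C, held none. The promoter table matched 4 of the 7 subunits, and the fourth, Grin3b (chr10:79970474-79970773, plus strand), held no GC box in 48.3% G and C. For comparison, 35.7% of 32851 promoter windows of the same length held a GC box and the median G and C content was 52.7%.

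The layer libraries held 585655 to 785013 UMIs in the GCL, 193869 to 208437 in the BCL and 310228 to 801105 in the ONL. The amacrine libraries were shallower, with 30317 to 87449 UMIs for TH+ and 134394 to 200344 for TH−. Marker genes followed the labels. The 8 ganglion cell markers summed to 4720 to 5280 CPM in the GCL and to at most 530 CPM in any ONL or BCL library, the 7 bipolar markers to 6590 to 7250 CPM in the BCL, and the 7 rod markers to 54400 to 67600 CPM in the ONL. Rod markers also reached 11600 to 20000 CPM in the BCL and 4350 to 7480 CPM in the GCL. In bulk libraries such as these, fewer cells of a type and less RNA per cell cannot be told apart.

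Together the 7 subunits gave 2524 UMIs in the GCL, 209 in the BCL and 255 in the ONL. Their summed level was 935 ± 78.1 CPM (mean ± s.d., n = 4 sections) in the GCL, 261 ± 17.4 CPM in the BCL and 108 ± 46.6 CPM in the ONL, and no range overlapped another. All 6 subunits that passed the low-count filter were called higher in the GCL than in either of the other layers, and 2 of the 6, Grin1 and Grin2b, were called between the BCL and the ONL. Tests used edgeR's quasi-likelihood F-test across all 11324 genes that passed the filter, with Benjamini–Hochberg adjusted p under 0.05 as the threshold. Many genes differ between retinal layers: 61.5% of all tested genes were called between GCL and ONL, 32.2% as higher in the GCL. Between GCL and BCL 36.5% were called, 20.4% as higher in the GCL, and between BCL and ONL 36.7%, 18.2% as higher in the BCL. With DESeq2 the last comparison split differently, 59.8% of its calls being higher in the BCL against 49.5% with edgeR. The 3 comparisons share libraries, and the p-values measure the spread between sections of 1 animal. Grin2c passed the filter only through its counts in the GCL, so its call adds no support to the count of 6 of 6, and Grin3b was not tested.

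**Figure D1:**
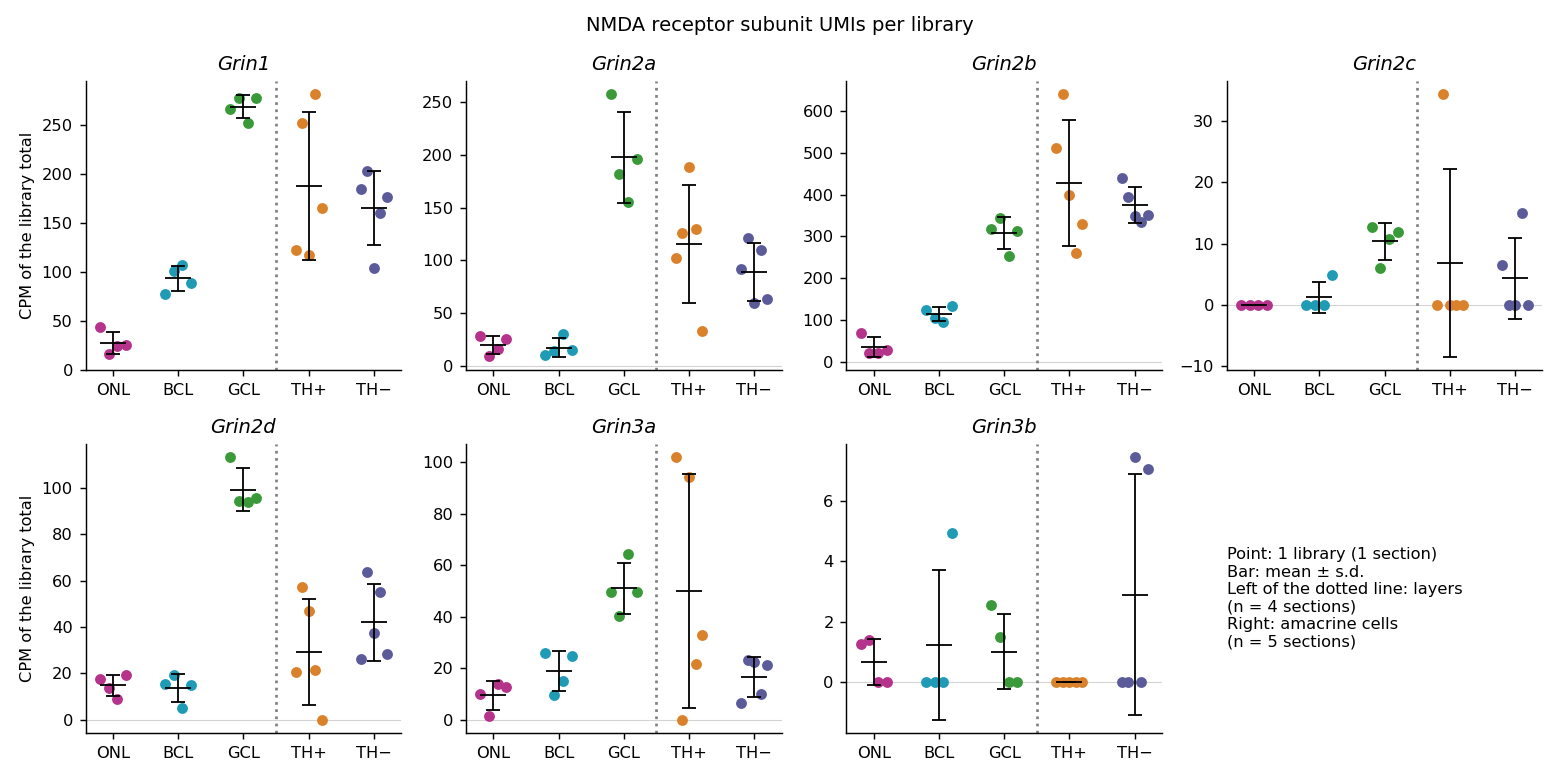
Level of each subunit, in CPM of the library total, in every library. Points are sections (4 for the layers, 5 for the amacrine cells) and bars are mean ± s.d.; amacrine libraries stand right of the dotted line and came from another sequencing run. Grin1, Grin2a, Grin2b, Grin2d and Grin3a are higher in every GCL section than in any ONL or BCL section, and no subunit separates TH+ from TH−.

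Grin1 encodes the subunit without which no NMDA receptor assembles. Its level in sections 1 to 4 was 266, 277, 252 and 277 CPM in the GCL, 77.4, 101, 107 and 89.0 CPM in the BCL, and 43.7, 16.6, 25.1 and 25.8 CPM in the ONL. The 3 layers were ranked GCL, BCL, ONL without overlap, and the GCL sections, at 268 ± 11.8 CPM, lay closest together relative to their mean. Grin1 was 8.17-fold higher in the GCL than in the ONL (log2 fold change 3.03 ± 0.17 s.e., edgeR adjusted p = 4.92e-22) and 3.21-fold higher than in the BCL (1.68 ± 0.18, adjusted p = 1.33e-11). It was also 2.55-fold higher in the BCL than in the ONL (1.35 ± 0.26, adjusted p = 2.46e-05). Per kilobase, Grin1 ranked 1351 of the 20592 genes detected in the GCL, within the top 6.56%, 4328 of 17188 in the BCL and 8125 of 19160 in the ONL.

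Grin2a and Grin2b encode GluN2A and GluN2B, the main glutamate-binding subunits of the forebrain. In many neurons GluN2B predominates early in development and GluN2A rises later. Grin2a was at 257, 181, 155 and 196 CPM in the 4 GCL sections, at 10.3, 14.4, 30.5 and 14.8 CPM in the BCL and at 28.7, 9.68, 16.0 and 25.8 CPM in the ONL. Every GCL section was far above the other libraries, and the BCL and ONL sections were intermingled. The GCL exceeded the ONL 8.84-fold (log2 fold change 3.14 ± 0.21 s.e., edgeR adjusted p = 4.14e-19) and the BCL 12.6-fold (3.66 ± 0.30, adjusted p = 3.38e-15). Between BCL and ONL the fitted difference was -0.51 ± 0.47 on the log2 scale (adjusted p = 0.442, 95% interval -1.44 to 0.42), from 14 and 45 UMIs, and its sign turned to 0.06 when section 1 was left out.

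Grin2b gave the most UMIs of the 7 genes, 828 in the GCL, and also has the longest exons. Its level was 317, 345, 254 and 314 CPM in the GCL, 124, 106, 96.5 and 133 CPM in the BCL, and 69.9, 20.8, 20.5 and 29.0 CPM in the ONL. The layers did not overlap, and 1 ONL library, that of section 1, stood apart from the other 3. Grin2b was 7.04-fold higher in the GCL than in the ONL (log2 fold change 2.81 ± 0.19 s.e., edgeR adjusted p = 2.91e-19), 3.01-fold higher than in the BCL (1.59 ± 0.19, adjusted p = 1.19e-09) and 2.34-fold higher in the BCL than in the ONL (1.23 ± 0.27, adjusted p = 0.00023). Without the ONL library of section 1, a choice made after seeing the data, these log2 differences from the ONL became 3.60 for the GCL (adjusted p = 9e-26) and 2.0 for the BCL (adjusted p = 6.62e-09). For Grin1 the same step gave 3.48 and 1.79.

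Grin2c and Grin2d encode the remaining GluN2 subunits, of which GluN2C is best known from cerebellar granule cells and GluN2D forms channels that close slowly. Grin2c was rare, with 10, 4, 7 and 7 UMIs in the GCL sections, 0, 0, 0 and 1 in the BCL and 0 in all 4 ONL sections. All GCL sections held more UMIs than any other layer library, but the BCL libraries are shallow, and 0 there allows 14.4 to 15.5 CPM, above the 5.99 to 12.7 CPM of the GCL sections. The 28 UMIs of the GCL correspond to 10.4 CPM, and the count of 0 in 2272285 ONL UMIs allows up to 1.32 CPM (3 UMIs over the group). The pooled GCL level was 7.89 times that ONL limit, a ratio that leaves out the counting error of the 28 UMIs. The edgeR adjusted p of 1.11e-05 is given as a description, since the gene entered the test only through its GCL counts, and the same holds for the BCL. Against the 1 UMI of the BCL the ratio of pooled counts was 8.35, with a 95% counting interval of 1.38 to 341 (edgeR adjusted p = 0.0145), and this call was lost with DESeq2 (adjusted p = 0.0684) and without section 3 (adjusted p = 0.0624). Without section 4, which held the 1 BCL UMI, the fitted log2 fold change moved from 2.95 to 5.36 (adjusted p = 0.0125), a value that depends on the prior count because the BCL is then at 0.

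Grin2d was at 113, 94.4, 93.8 and 95.6 CPM in the GCL, at 15.5, 19.2, 5.08 and 14.8 CPM in the BCL and at 17.5, 13.8, 9.13 and 19.3 CPM in the ONL. As with Grin2a, the GCL stood alone and the other layers overlapped. The GCL was 5.85-fold above the ONL (log2 fold change 2.55 ± 0.23 s.e., edgeR adjusted p = 1.34e-14) and 8.01-fold above the BCL (3.00 ± 0.32, adjusted p = 2.11e-11). The BCL and the ONL differed by -0.45 ± 0.47 on the log2 scale (adjusted p = 0.502, 95% interval -1.37 to 0.46).

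Grin3a and Grin3b encode the glycine-binding GluN3 subunits, whose receptors pass less calcium and are less blocked by magnesium. Grin3a was at 49.7, 40.5, 64.6 and 49.5 CPM in the GCL, at 25.8, 9.60, 15.2 and 24.7 CPM in the BCL and at 9.99, 1.38, 13.7 and 12.9 CPM in the ONL. Again the GCL did not overlap with the others. It was 5.27-fold above the ONL (log2 fold change 2.40 ± 0.32 s.e., edgeR adjusted p = 4.93e-09) and 3.03-fold above the BCL (1.60 ± 0.37, adjusted p = 0.000365). The BCL and ONL ranges overlapped, with a difference of 0.80 ± 0.53 (adjusted p = 0.252, 95% interval -0.23 to 1.83). Grin3b was close to the limit of detection in every layer, with 3 UMIs in the GCL, 1 in the BCL and 2 in the ONL over all 4 sections, and no order of the layers could be read from these counts.

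**Figure D2:**
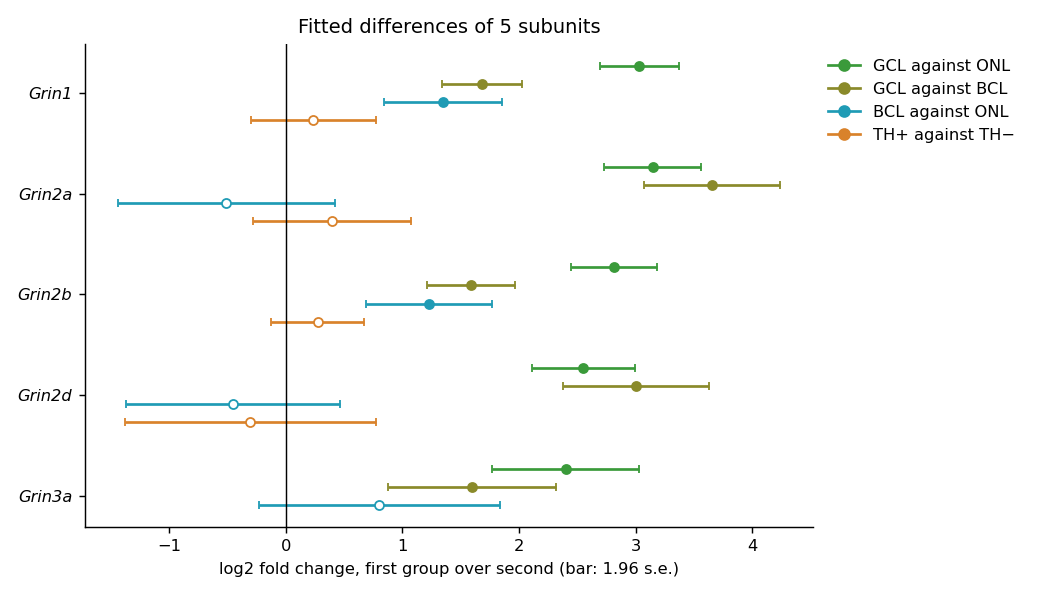
Fitted log2 fold changes of 5 subunits in the 4 comparisons, first group over second, with bars of 1.96 standard errors. Grin3a was not tested in TH+ against TH− and has no point there. Filled points passed an adjusted p under 0.05. Grin1 and Grin2b lie to the right of 0 in all 3 layer comparisons, Grin2a, Grin2d and Grin3a are filled only where the GCL is compared, and the TH+ against TH− intervals all include 0.

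The length-corrected levels give the order of the subunits within a layer. In the GCL Grin1 came first at 27.6 CPM per kilobase, followed by Grin2d at 14.9, Grin2b at 12.4, Grin2a at 11, Grin3a at 4.16, Grin2c at 2.06 and Grin3b at 0.307. Only Grin2b and Grin2a overlapped as neighbours in this order. The place of Grin2d above Grin2b in the GCL rests on dividing by exon lengths of 6658 bases for Grin2d and 24842 bases for Grin2b. In the BCL Grin1 (9.64 CPM per kilobase) was above Grin2b (4.62) and Grin2b above Grin2d (2.05), both without overlap, and from Grin2d downward all neighbours overlapped. In the ONL, where Grin1 stood at 2.87, every neighbour overlapped the next.

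The balance of Grin2a and Grin2b was lowest for Grin2a in the BCL, a description to which no test was applied. Grin2a made up 52.9, 42.2, 45.9 and 46.4% of the length-corrected sum of both genes in the GCL sections, 10.3, 15.9, 30.4 and 13.3% in the BCL and 36.3, 39.3, 51.9 and 55.2% in the ONL. The BCL sections were below all others, and the GCL (46.9 ± 4.45%, mean ± s.d., n = 4) and ONL (45.7 ± 9.27%) overlapped. The BCL values rest on 2 to 6 Grin2a UMIs per section. Without the length correction the mean share in the GCL was 39.0%. Grin1 made up 40.8 ± 2.56% of the summed Grin1 and GluN2 levels per kilobase in the GCL, 55.0 ± 6.50% in the BCL and 37.5 ± 6.12% in the ONL. Grin2d made up 20.6 ± 0.968% of all 7 subunits in the GCL, 10.6 ± 4.76% in the BCL and 27.2 ± 8.11% in the ONL.

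**Figure D3:**
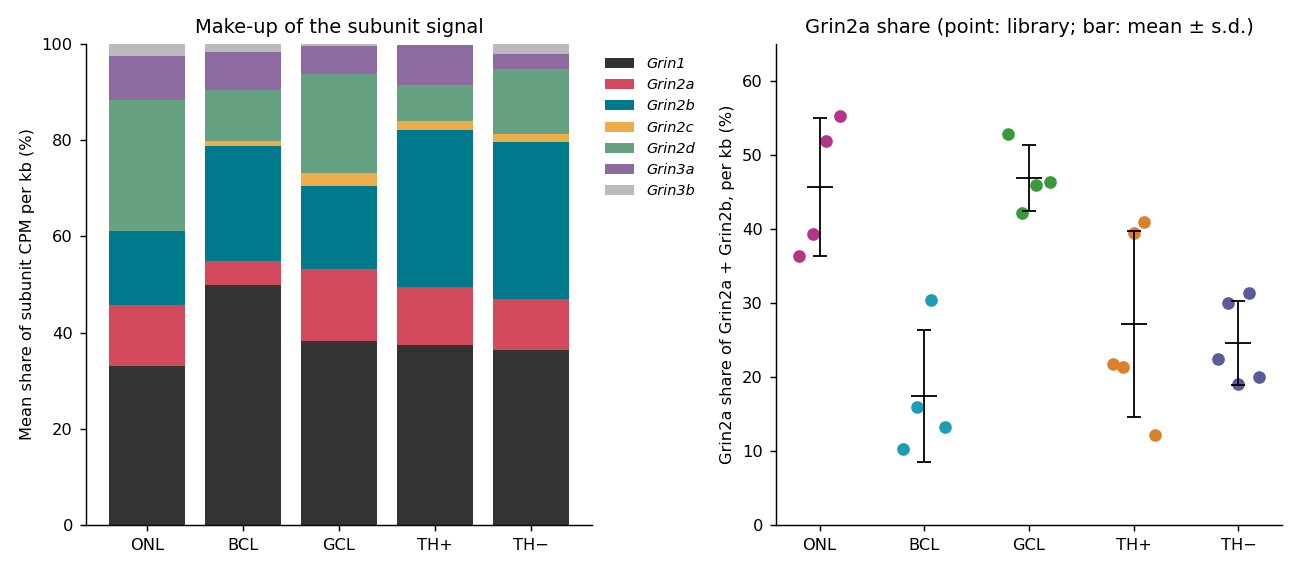
Left, mean share of each subunit in the summed CPM per kilobase of the 7 genes, by group (4 sections per layer, 5 per amacrine group). Right, Grin2a as a percentage of Grin2a plus Grin2b per kilobase, with points for sections and bars for mean ± s.d. The BCL mean is 17.5%, below the GCL at 46.9% and the ONL at 45.7%, and the amacrine groups stand at 27.1% for TH+ and 24.6% for TH−.

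Subunit RNA under the ONL and BCL barcodes can be read beside RNA of the ganglion and amacrine cells that the labels place elsewhere. As a percentage of the GCL mean, the ganglion cell markers stood at 10.5, 4.81, 5.17 and 9.80% in ONL sections 1 to 4, and Grin1 at 16.3, 6.19, 9.37 and 9.62%. The amacrine markers, 8 genes that include the GABA-synthesizing enzymes, stood at 27.9, 12.4, 13.4 and 24.4%. In each ONL section Grin1 and Grin2a lay below the amacrine markers, and Grin1 lay above the ganglion markers in sections 1, 2 and 3. Grin3a, at 19.6, 2.71, 26.8 and 25.3%, exceeded the amacrine markers in ONL sections 3 and 4, and Grin2d, at 17.6, 13.9, 9.20 and 19.5%, exceeded them in section 2. In the BCL the ganglion markers were at 5.55 to 10.2% of the GCL, Grin2a at 5.22 to 15.4% and Grin2d at 5.12 to 19.3%, whereas Grin1 was at 28.9 to 39.8% and Grin2b at 31.4 to 43.4%. The amacrine markers in the BCL were at 40.2 to 52.3%, above Grin1 in every section and below Grin3a (18.8 to 50.5%) in section 1, and 2 of the 8 were called higher in the BCL than in the ONL, near the 18.2% of all tested genes. Of the 8 ganglion markers 0 were called in either direction between BCL and ONL (edgeR), beside 36.7% of all tested genes. The marker lists were not tested against each other. The part of ganglion or amacrine RNA in the subunit levels of the ONL and BCL was not tested.

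**Figure D4:**
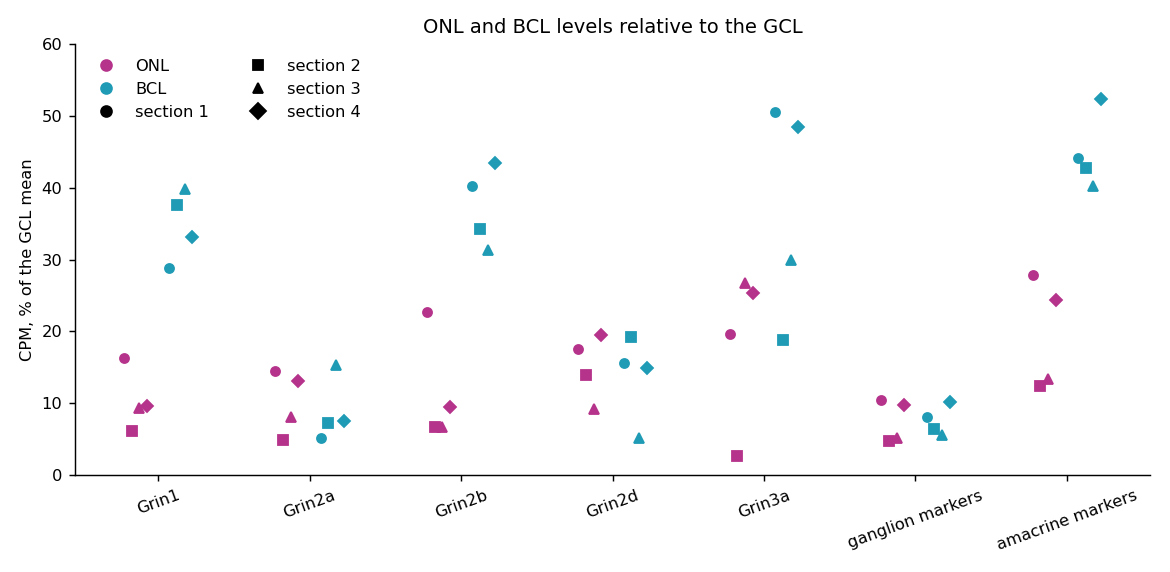
Levels in the ONL and BCL as a percentage of the GCL mean, for 5 subunits and for the summed ganglion and amacrine markers, with a symbol for each section. In the BCL, Grin1 and Grin2b lie between 28.9 and 43.4%, and Grin2a and the ganglion markers lie between 5.22 and 15.4%.

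The amacrine experiment asked which RNAs distinguish dopaminergic amacrine cells from their neighbours. Dopaminergic markers summed to 2100 to 4350 CPM in the TH+ libraries and to 132 to 264 CPM in the TH− libraries, although Slc6a3, the dopamine transporter, was at 0 in 4 of 5 TH+ libraries. The general amacrine markers summed to 2120 to 3360 CPM in TH+ and 2650 to 4640 CPM in TH−. Since the stain for tyrosine hydroxylase chose the TH+ cells, these markers serve as a check of the labels. The study's methods name a single source animal for the barcoding and the labels give no others, so these p-values too measure the spread between sections and not between animals. All 7 subunits together were at 818 ± 203 CPM (mean ± s.d., n = 5 sections, 225 UMIs) in TH+ and at 695 ± 88.2 CPM (561 UMIs) in TH− libraries, with overlapping ranges. Of the 4 subunits tested, 0 were called by edgeR and 0 had an unadjusted p under 0.05, and DESeq2, which gave an adjusted p to 5 subunits and none to Grin2c and Grin3b, called 0 of the 5 and gave 1, Grin3a, an unadjusted p under 0.05. Among all 6021 tested genes 0.83% were called, 0.747% as higher in TH+, and the 50 calls behind these shares, 45 of them higher in TH+, became 148 with the section as a block, 96 of them higher.

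Grin1 was at 122, 252, 118, 281 and 165 CPM in TH+ sections 1 to 5 and at 184, 202, 104, 160 and 176 CPM in the TH− libraries of the same sections. The TH+ range held 4 of the 5 TH− values, and the fitted difference was 0.24 ± 0.27 on the log2 scale (edgeR adjusted p = 0.89, 95% interval -0.30 to 0.77). Grin2b was at 510, 640, 400, 259 and 330 CPM in TH+ and at 440, 393, 350, 334 and 352 CPM in TH−. It was higher in TH+ in sections 1, 2 and 3 and lower in sections 4 and 5, with a difference of 0.27 ± 0.20 (adjusted p = 0.77, interval -0.12 to 0.67). Grin2a was at 102, 126, 188, 130 and 33.0 CPM in TH+ and at 92.0, 122, 59.5, 110 and 63.4 CPM in TH−. Only section 5 was lower in TH+, on 1 UMI, and the difference was 0.39 ± 0.34 (adjusted p = 0.82, interval -0.28 to 1.07). Grin2d was at 20.4, 57.2, 47.1, 21.6 and 0 CPM in TH+ and at 26.3, 63.6, 37.2, 54.9 and 28.2 CPM in TH−, and section 3 alone was higher in TH+ (difference -0.31 ± 0.55, adjusted p = 0.942, interval -1.38 to 0.77). These intervals leave room for changes of either sign.

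The GluN3 subunits and Grin2c were too sparse for the filter. Grin3a had 5, 0, 4, 1 and 1 UMIs in TH+ and 1, 4, 3, 2 and 3 in TH− libraries, which is 102, 0, 94.1, 21.6 and 33.0 CPM against 6.57, 23.1, 22.3, 9.98 and 21.1 CPM. Sections 1, 3 and 5 of TH+, the last on 1 UMI, were above every TH− library, section 4 lay within the TH− range and section 2 had none, where 0 allows up to 34.3 CPM. The pooled counts of 11 and 13 UMIs gave a ratio of 2.65 with a 95% counting interval of 1.08 to 6.42, which does not include the spread between sections. DESeq2 gave Grin3a a log2 fold change of 1.52 (unadjusted p = 0.0307, adjusted p = 0.855), and edgeR without a filter gave 1.23 ± 0.66 (unadjusted p = 0.0615, adjusted p = 0.646). Grin2c had 3 UMIs in TH+, all in section 2, and 4 in TH−. Grin3b had 0 UMIs in TH+ and 2 in TH−.

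Within the amacrine groups the order per kilobase was led by Grin1 and Grin2b, at 19.3 and 17.2 CPM per kilobase in TH+ and 17.0 and 15.1 in TH−, and their ranges overlapped in both. In TH− libraries Grin2b was above Grin2d (6.32) without overlap, Grin2d and Grin2a (4.98) overlapped, and Grin2a was above Grin3a (1.36). In TH+ libraries all neighbours overlapped. The Grin2a share of Grin2a plus Grin2b per kilobase was 21.7, 21.4, 39.5, 40.9 and 12.2% in TH+ and 22.4, 30.0, 19.1, 31.3 and 20% in TH−. The TH+ shares rest on 1 to 11 Grin2a UMIs per section, and the 95% Wilson limits of the uncorrected share reached 51.6% in section 3 and 56.3% in section 4. The amacrine shares came from another sequencing run and other sections and were not tested against the layers. Rod markers summed to 13700 to 35500 CPM in TH+ and 7870 to 21000 CPM in TH− libraries. Of the 7 rod genes 2 were called higher in TH+, beside 0.747% of all tested genes. Müller glia markers summed to 3000 to 4460 CPM in TH+ and 4190 to 6790 CPM in TH−. Bipolar markers summed to 594 to 1500 CPM in TH+ and 740 to 2630 CPM in TH−. The part of RNA from these cell types in the subunit levels was not tested.

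Around the receptor, 58 partner genes in 4 lists were examined in the same fits: postsynaptic scaffold, subunit trafficking, co-agonist supply, and calcium-dependent and kinase signalling. In the layers 50 were tested, and between GCL and ONL 34 were called higher in the GCL, beside 32.2% of all tested genes, and 10 lower, beside 29.3%, with a median log2 fold change of 1.49 against -0.00411 over all tested genes. Of the 15 scaffold genes, 11 were higher and 4 lower, beside the same shares, with none uncalled. Dlgap3, a protein that links scaffold layers, went from 25.9 ± 9.52 CPM in the ONL to 243 ± 17.3 CPM in the GCL (log2 fold change 2.98 ± 0.18 s.e., adjusted p = 3.11e-21), and Dlgap2 and Homer2 rose by 3.20 and 2.55. Dlg4, which encodes PSD-95, the scaffold that binds the tails of GluN2 subunits, was lower in the GCL than in the ONL, with an ONL level of 1310 ± 34.0 CPM, a BCL level of 855 ± 58.0 CPM and a GCL level of 666 ± 49.2 CPM (GCL against ONL -1.13 ± 0.10, adjusted p = 3.13e-14). It was not called between GCL and BCL (-0.19 ± 0.11, adjusted p = 0.179). Photoreceptor terminals are known to hold PSD-95 protein, and a link of this to the Dlg4 RNA level under the ONL barcode was not tested. Homer3 (-2.15) and Dlg1 (-0.96) were also lower in the GCL.

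Of the 8 trafficking genes tested, 5 were higher in the GCL than in the ONL, 1 was lower and 2 were not called, beside 32.2% higher and 29.3% lower of all tested genes. Apba1, which joins the complex that carries GluN2B along dendrites, was at 102 ± 18.5 CPM in the ONL and 748 ± 70.8 CPM in the GCL (log2 fold change 2.7 ± 0.13, edgeR adjusted p = 5.04e-25), and Lin7a (1.96) and Ephb2 (1.95) also rose. Lin7a was highest in the BCL, at 227 CPM against 104 CPM in the GCL, and was called lower in the GCL than in the BCL (-0.96, edgeR adjusted p = 2.4e-06). Lin7c, a relative of Lin7a, was lower (-1.64). The co-agonist list moved both ways, with 2 of 6 higher, near the 32.2% of all tested genes, 3 lower, beside 29.3% of all tested genes, and 1 not called, and a median of -0.51. Psat1 of serine synthesis (1.52) and the transporter Slc1a4 (1.47) were higher in the GCL than in the ONL. Psat1 was highest in the BCL, at 63.7 CPM against 25.8 CPM in the GCL, and was called lower in the GCL than in the BCL (-1.12, edgeR adjusted p = 0.00131). Shmt2 (-0.97), the glycine transporter Slc6a9 (-0.60, adjusted p = 0.0117) and serine racemase Srr, which makes D-serine (-0.50, adjusted p = 0.0402), were lower in the GCL than in the ONL.

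The signalling list had 16 of 21 genes higher in the GCL than in the ONL, 2 lower and 3 not called, beside 32.2% higher and 29.3% lower of all tested genes, with a median of 1.73 against -0.00411 over all tested genes. Camk2a, the calcium-dependent kinase that binds GluN2B, was at 188 ± 17.8 CPM in the GCL, with 21.7 ± 12.7 CPM in the ONL and 21.1 ± 8.40 CPM in the BCL (log2 fold change 2.94 ± 0.21 against the ONL, edgeR adjusted p = 2.89e-18). Nos1, the neuronal nitric oxide synthase tethered to PSD-95, rose by 2.93. Rasgrf1 and Rasgrf2, calcium-responsive exchange factors for Ras, moved in opposite directions, with 41.3 CPM in the ONL and 431 CPM in the GCL for Rasgrf1 (3.13 ± 0.16, adjusted p = 5.38e-24) and 571 against 122 CPM for Rasgrf2 (-2.38 ± 0.13, adjusted p = 6.31e-23). Creb1 was lower in the GCL (-1.53). Between GCL and BCL 26 of the 50 partners were higher, beside 20.4% of all tested genes, and 9 were lower, near the 16.1% of all tested genes. Between BCL and ONL 26 were higher in the BCL, beside 18.2% of all tested genes, and 9 were lower, near the 18.5% of all tested genes. Between TH+ and TH− cells 1 of 45 tested partners was called, beside 0.83% of all genes, namely Rasgrf1, at 731 ± 167 CPM in TH+ and 364 ± 51.8 CPM in TH− (log2 fold change 1.02 ± 0.18, adjusted p = 0.000325).

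**Figure D5:**
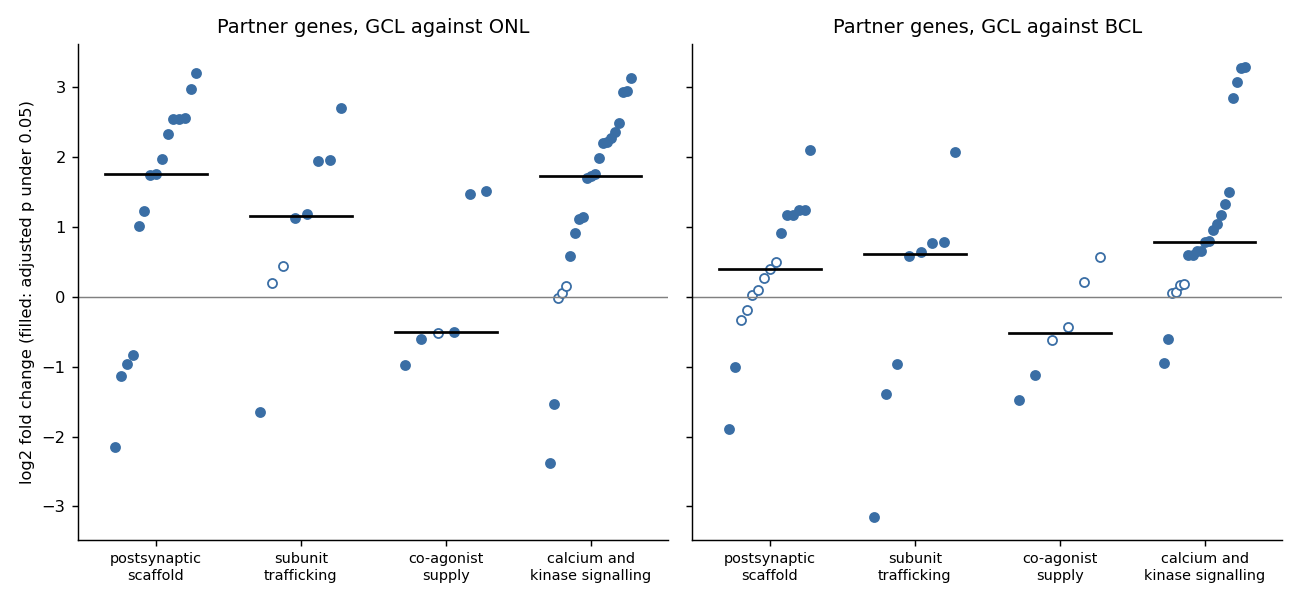
Log2 fold change of each tested partner gene, by list, for GCL against ONL (left) and GCL against BCL (right). Filled points passed an adjusted p under 0.05 and the black line is the list's median, which for GCL against ONL is 1.75 for scaffold, 1.16 for trafficking, -0.51 for co-agonist supply and 1.73 for signalling.

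The genes whose level moved most like a subunit over the 12 layer libraries were found by Pearson's r of log2 CPM. These points share 3 layers and 4 sections, so r is given as a description, with no test. For Grin1 they were Mapk10 (r = 0.995), a neuronal kinase, Prkar1b (0.994), a regulatory subunit of protein kinase A, and Ina (0.992), a neurofilament protein. For Grin2b they were Rnf187 (0.991), the cadherin-related Fat3 (0.99) and the sodium-calcium exchanger Slc8a1 (0.99). All 6 of these genes were intermediate in the BCL, as Grin1 and Grin2b were. For Grin2a they were Anxa6 (0.98), Camk2a (0.98) and Myh10 (0.979), and for Grin2d Necab2 (0.984), Coch (0.984) and Caln1 (0.982), and in these the mean CPM of the BCL and the ONL were close to each other. Grin2c was most like Dpp10 (0.975), an auxiliary subunit of potassium channels, Lmtk2 (0.972) and Cyp4x1 (0.969), and Grin3a was most like Ano6 (0.944), Cdk5r1 (0.943) and Adam11 (0.943). Because Grin2c had 0 UMIs in all 4 ONL sections and in 3 BCL sections, its r depends on the prior count used there. Among the subunits, r was 0.977 for Grin1 and Grin2b and 0.913 for Grin2a and Grin2d, against 0.783 for Grin2a and Grin2b.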

How the data were processed

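UMI counts of 4 layer and 5 amacrine sections were used. The authors extracted UMIs with UMI-tools 1.1.1, aligned reads with STAR 2.7.9a to mm39 with GENCODE genes, dropped multiply mapped reads, counted exonic reads with featureCounts, collapsed UMIs and split them by exact barcode, and the deposited count is a whole number without normalization. They removed 2 ribosomal RNA genes; featureCounts ran at its defaults, which ignore strand and leave out reads that overlap exons of more than 1 gene. Layers and amacrine cells were sequenced in separate runs, so levels were not tested across them. The pooled layer library was not analysed here.

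Members and lists were chosen with earlier results of these data known. CPM is the count scaled to a common column total. Exon lengths are those deposited with the authors' mouse counts. Positions and exon overlaps are those of GENCODE vM39 (GRCm39), newer than the authors' vM27, matched by Ensembl identifier. Each table was fitted once with edgeR 4.0.16 in R 4.3.3 (TMM scaling, at least 3 UMIs per library and 10 in total by filterByExpr, quasi-likelihood F-test, Benjamini-Hochberg at 0.05), leaving 11324 and 6021 genes. The standard error is the log2 fold change over the square root of F, and 95% intervals are 1.96 standard errors. Simulated counts were also run through the procedure, with a common spread for all genes and no section effect, and no result here rests on them. Intervals and limits from counts cover counting error only.

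Named genes were all 7 subunits, up to 3 called genes at each end of each partner list in GCL against ONL (and in TH+ against TH−), and for each tested subunit the 3 genes with the highest r of log2 CPM with a prior count of 2. Libraries held 30317 to 801105 UMIs. The labels place the libraries of a section in 1 sample, and after removing group means the residuals of same-section libraries correlated at 0.0116 to 0.0493 in the 12 layer pairs and at 0.0287 to 0.2565 in the 5 amacrine pairs. No 2 replicates agreed within counting noise (chi-square per degree of freedom 1.151 to 2.91). Alternatives were DESeq2 1.42.0, its size factors in edgeR, no filter, the default filter, the section as a block, mitochondrial genes left out, and each section left out in turn. Python 3.11.15, pandas 2.3.3, scipy 1.17.1 and matplotlib 3.10.9 were used.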

Additional observations from a re-analysis of the deposited data

Results flagged for a closer look

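In groups of 4 or 5 sections, a value was listed when its gap to the next one took up most of the group's range (Dixon's test at 95%). Among 33 groups examined, chance does this in about 1 of 20 where values vary continuously, but a group with a single section above 0 meets it by construction. Grin2d in the GCL reached 113 CPM in section 1 (89 UMIs), with 95.6 CPM next, a gap of 0.905 of the range. The other 3 such values are single sections above 0 and rest on 1 to 3 UMIs: Grin2c in TH+ section 2 was at 34.3 CPM (3 UMIs) with 0 in the other sections, and Grin2c and Grin3b in BCL section 4 were each at 4.94 CPM (1 UMI) with 0 in the other sections.

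Outside the retina, 13 UMIs of Grin2d were counted under the barcode of 3T3 cells, a mouse embryonic fibroblast line grown with human cells in 3 wells, as 1, 5 and 7 UMIs per well. The other 6 subunits had 0 UMIs in all 3 wells, where 0 allows up to 22.1, 14.5 and 15.1 CPM. The study found a share of human reads under the mouse barcode. For its UMI counts it mapped mouse-barcoded reads to the mouse genome. Whether human reads are among the 13 UMIs was not tested.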

How the results depend on the processing

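The subunits called were 5 or 6 for GCL against ONL and for GCL against BCL, 2 for BCL against ONL and 0 for TH+ against TH− under all alternatives run. The subunits tested were 5 to 7 in the layers and 3 to 7 in the amacrine libraries. In both GCL comparisons, 5 meant 5 of 5 tested with the default filter or without section 1. In GCL against BCL, 5 of 7 were called with DESeq2 and 5 of 6 without section 3. Counts of called partners ranged from 41 to 45, 30 to 36, 31 to 35 and 1 to 1. Partners tested were 46 to 58 in the layers and 33 to 57 in the amacrine libraries. Over all genes, GCL against ONL gave 5676 calls of 7956 with the default filter and 6225 of 24460 with DESeq2. Of the single-gene results 222 kept direction and side of the threshold. Grin2c against the BCL lost its call with DESeq2 (log2 fold change 2.91) and without section 3 (2.62), and was not tested with the default filter or without section 1, where it had too few UMIs. Grin2a between BCL and ONL was -0.51 and ranged from -0.9961 to 0.06008 when a section was left out, the sign turning without section 1, and was not called in any of these fits; the cause was not tested. The Grin2a share in the GCL was 39.0% on raw UMIs, a difference made by the length correction. Pairing the libraries by section as a replicate block gave the same calls for every subunit, with 6, 6, 2 and 0 subunits called and 44, 35, 35 and 1 partners. Over all genes of the amacrine table the 50 calls, 90% of them higher in TH+, became 148 with the block (64.9% higher), 66 without a filter (51.5% higher) and 29 to 73 when a section was left out. Leaving out the filter moved the median log2 fold change of the genes that pass the filter from -0.0522 to -0.204 for TH+ against TH− and from 0.0183 to 0.131 for GCL against BCL. Depth limits Grin2c, Grin3a and Grin3b in the amacrine libraries, where 0 UMIs in a TH+ library allow 34.3 to 99.0 CPM.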
